A study of Triticum aestivum with 24 samples.

Results

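The 200 genes described here were the wheat genes with the strongest drought response shared by every genotype of the study, among genes abundant under drought. They were taken from 107891 gene identifiers by a rule that used the measured values. For each of 4 genotypes the drought change was computed as log2 of the drought group mean plus 1 over the well-watered group mean plus 1. A gene was considered when it reached a normalized count of 5 in at least 1 well-watered library and a mean of 500 in every drought group, which 10506 genes did after the exclusions below. These were ranked by the lowest of their 4 changes, and the first 200 were kept. The rule left out 6 identifiers by name and a long range of identifiers on chromosome 2A; 245 of the identifiers left out met the level conditions, and 8 of them, 7 on 2A, would otherwise have ranked among the members. Because the members were chosen by these drought changes and levels, those changes and the differences between them are given as description, with no test.

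When soil dries, leaves accumulate the hormone abscisic acid, which closes stomata and, through protein kinases and transcription factors, switches on genes for protective proteins such as dehydrins and other late embryogenesis abundant proteins, for sugars and proline that retain water, and for enzymes that remove reactive oxygen. Prolonged drought also starts leaf senescence, in which chlorophyll and protein are broken down and nitrogen is exported. TOR, a protein kinase named after the drug rapamycin, promotes growth when nutrients and energy are plentiful, and in Arabidopsis it and abscisic acid signalling restrain each other. Bread wheat carries the subgenomes A, B and D, so that most genes exist as a set of near-identical copies, one on each.

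Leaf RNA was sequenced from 3 transgenic lines labelled UBQ, DREM and DEH2 and from the spring wheat Fielder, labelled WT, in which the lines were made. The labels describe each line as carrying wheat TOR (TaTOR) under the promoter that gives the line its name; they do not say what DREM and DEH2 stand for, or how many transformation events a line represents. Each genotype had 3 libraries from drought-treated and 3 from well-watered plants, 24 in all. Plants grew at 80% of field capacity to an age of 4 weeks, after which water was withheld for 12 days; the sources used here do not give the day of leaf sampling. Nothing in the labels says whether replicates were separate plants, so p-values measure the spread between libraries, which may be technical.

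Estimated depth was 33659900 to 55338700 reads per library. No gene names could be matched to the identifiers, so members are given by identifier, without roles, and neither the leaf label nor the drought response could be checked against marker genes. An identifier such as TraesCS5A02G153900 gives the chromosome (5A) and the order along it. Values were not divided by transcript length, so levels are compared between groups of libraries and not between genes. In bulk leaf RNA, more cells expressing a gene and more RNA per cell cannot be told apart.

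The genotype labels of the 2 regimes did not match each other along the chromosomes. A run of 210 genes at the start of chromosome 1B lay at a median log2 deviation of -4.88 from the other drought groups in drought DREM libraries, and at -4.97 in well-watered DEH2 libraries. The 1470 such genes in a run on 2A were low in drought WT libraries (-0.71) and in well-watered UBQ libraries (-0.77). Runs on 4B (0.75) and 6B (-4.03) stood out in drought UBQ libraries but not in well-watered ones. None of the 200 members lies in these runs, which the rule made likely beforehand. It left out a range on 2A and asked for a mean of 500 in every drought group. In the runs on 1B, 2A, 4B and 6B, 4, 0, 28 and 12 genes met the level conditions after the exclusions. Nothing about the labels is read from the absence of members. Whether the drought and well-watered libraries of a label came from like plants was not tested, and group names below are those of the labels. When genes were instead ranked by the lowest drought group mean over the highest well-watered group mean, which pairs no groups by label, 178 of the 200 members were kept; this ranking was chosen after the data were seen.

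Every member was higher under drought in every genotype label. The log2 change had a median of 4.49 (2.20 to 12.08) for UBQ, 4.34 (2.16 to 11.43) for DREM, 4.67 (2.16 to 10.54) for DEH2 and 4.41 (2.17 to 13.82) for WT. Over the 10506 genes that met the level conditions, the medians were 0.14, 0.14, 0.10 and 0.20 for the same labels. The lowest of a member's 4 changes had a median of 3.43; 122 members changed by at least 3, 53 by at least 5 and 15 by at least 7 in all 4 labels. All 200 passed the limma test as higher under drought in each genotype (Benjamini-Hochberg adjusted p under 0.05), as did 37.2% of 60088 tested genes for UBQ, 35.2% for DREM, 35.1% for DEH2 and 30.2% for WT. In either direction 72.8%, 68.9%, 69.6% and 61.4% of tested genes passed for the same labels. Since the rule used these contrasts, nothing is read from the members' count.

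**Figure D1:**
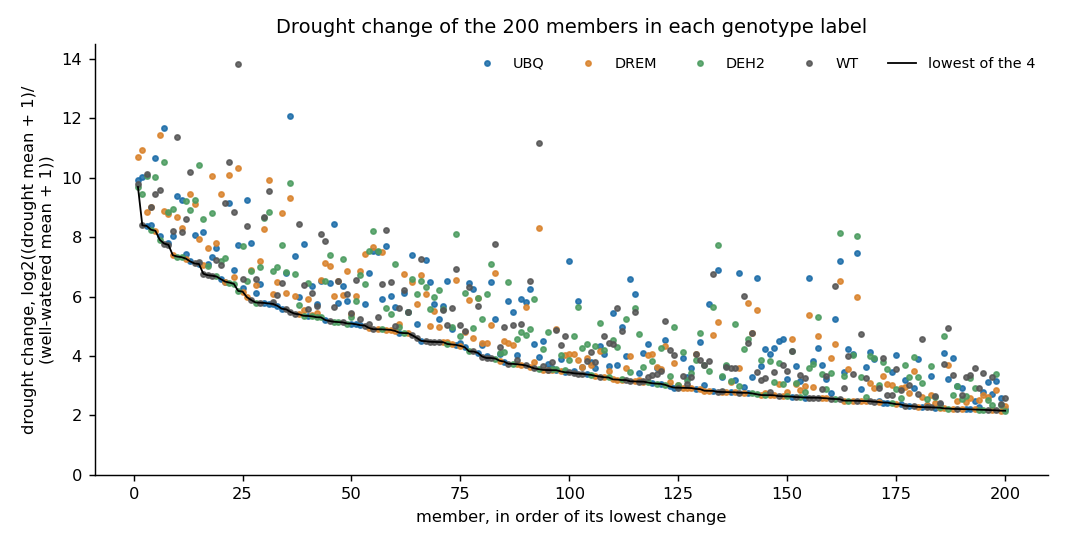
Drought change of each of the 200 members, as log2((drought mean + 1)/(well-watered mean + 1)), against its rank by the lowest of the 4 changes; points are the 4 genotype labels and the line is the lowest of the 4. The lowest change is 9.69 at rank 1 and 2.16 at rank 200, and single labels lie far above it for many members.

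At the edge of the rule, the last 3 members had lowest changes of 2.17 (TraesCS4D02G144900), 2.16 (TraesCS7D02G303900) and 2.16 (TraesCS3B02G325800). The first 3 genes outside it had 2.14 each (TraesCS5D02G147700, TraesCS1A02G355500 and TraesCS1B02G229400). The list therefore ends within a continuous range of changes, not at a gap.

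In single libraries the regimes were separated for nearly all members. The median member had 1522 to 2880 normalized counts in drought libraries and 86.0 to 129 in well-watered libraries. In 199 of the 200, every one of the 12 drought libraries was above every one of the 12 well-watered libraries, which held for 24.4% of the genes that met the level conditions and for 11.1% of all tested genes. The lowest drought library was at least 2-fold above the highest well-watered library in 192 members (96%) and at least 4-fold above it in 148 (74%). These sizes were reached by 3.35% and 1.44% of the genes that met the level conditions, and by 2.45% and 1.28% of tested genes. The rule ranked members by the means of these same libraries, so the separation largely follows from it and nothing is read from these counts. The exception was TraesCS5D02G159100, where the lowest drought value, in DEH2, was 802.5 and the highest well-watered value, in UBQ, was 1667.

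**Figure D2:**
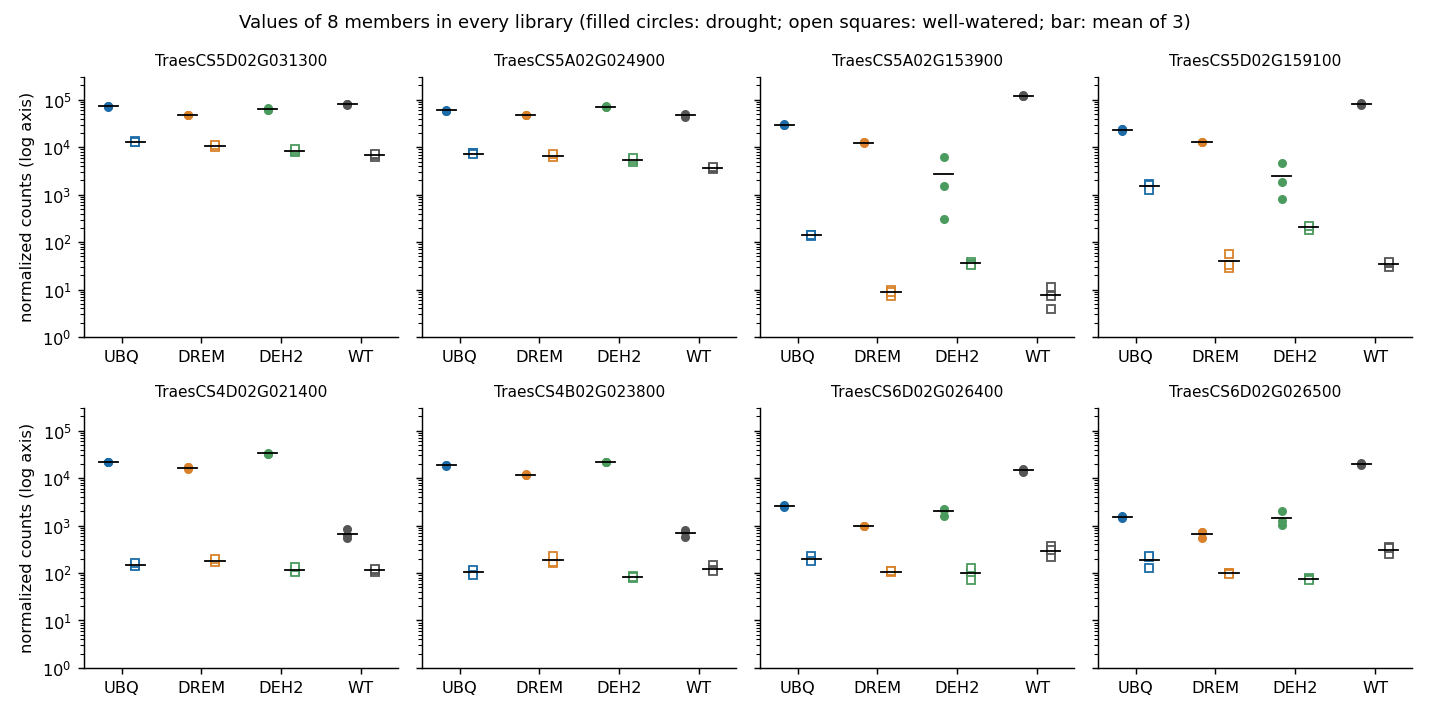
Normalized counts (log axis) of 8 members named in the text, 1 panel each, in every library by genotype label; filled circles are drought libraries, open squares well-watered libraries and bars the means of 3. Every drought library lies above every well-watered library of its own label in each panel, and the labels lie close together in drought for TraesCS5D02G031300 and TraesCS5A02G024900 but far apart for the other 6.

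The mean over the 4 drought groups had a median of 2401 over members (573.2 to 66117), against 112.2 (0.805 to 9652) for the mean over the 4 well-watered groups. The well-watered mean was at least 10 in all 4 genotypes for 171 members and under 10 in all 4 for 8. The value was 0 in at least 1 well-watered library for 14 members and in all 3 libraries of a genotype for 4. For those 4, fold changes are lower bounds against 3 reads per library: TraesCS1D02G147800 was at least 544-fold higher under drought in DREM and at least 282-fold higher in DEH2; TraesCS5A02G198800 at least 434-fold in UBQ and 156-fold in WT; TraesCS5B02G197400 at least 885-fold in UBQ; and TraesCS4B02G044700 at least 262-fold in WT.

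The 10 members with the highest lowest change were abundant under drought and had low counts in well-watered leaves. Some were nearly absent there and others were detected, such as TraesCS6D02G333600 with a mean of 30.4 in well-watered UBQ libraries. TraesCS1D02G147800 (rank 1) had 3092, 2738 and 3168 in drought UBQ libraries, 1698, 1610.1 and 1641 in DREM, 914, 758 and 796 in DEH2 and 3987, 4022 and 4089 in WT. With water it had 3.78, 1.16 and 1.25 in UBQ, 0 in all DREM and DEH2 libraries, and 0, 10.7 and 0 in WT. Its drought level was lowest in DEH2, with no overlap with the other labels, and its well-watered values rest on a few reads, since 1 read was worth 0.837 to 1.54 in well-watered libraries. TraesCS3D02G159200 (rank 2) had 4636, 4257 and 4628 in drought UBQ libraries, 4669.6, 4549 and 4321 in DREM, 1168, 1277 and 1665 in DEH2 and 871, 863 and 822 in WT. No well-watered library exceeded 5.07. Its drought values overlapped between UBQ and DREM and were lower, without overlap, in DEH2 and lower again in WT.

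TraesCS3A02G237000 (rank 3) had lowest change 8.38, and its drought means were 6356 ± 396 in UBQ, 2333 ± 241 in DREM, 4776 ± 119 in DEH2 and 5933 ± 698 in WT (SD, n = 3 each). TraesCS1B02G304800 (rank 4, lowest change 8.25) averaged 4338 ± 338 in drought UBQ libraries and between 1717 and 1923 in the other 3 drought groups. Both were at most 22.4 and 19.8 in any well-watered library. TraesCS5A02G198800 and TraesCS5B02G197400 (ranks 5 and 7) were both highest in DEH2 under drought (3348 ± 121 and 3886 ± 255) and next in UBQ (1602 ± 140.2 and 3262 ± 139). They were lower in DREM (600.5 ± 105 and 1247 ± 146) and WT (699 ± 134 and 964 ± 94.1). DREM and WT values of TraesCS5A02G198800 overlapped between libraries, and those of TraesCS5B02G197400 did not.

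TraesCS6D02G333600 (rank 6) is described with its neighbours below. TraesCS4D02G210900 (rank 8) averaged 6259.7 ± 268 in UBQ, 5060.4 ± 709 in DREM, 8704 ± 374 in DEH2 and 4129 ± 545 in WT under drought, and 26.9 ± 3.02 in UBQ, 10.6 ± 2.73 in DREM, 18.1 ± 7.76 in DEH2 and 18.3 ± 4.31 in WT with water. TraesCS7D02G428800 (rank 9) averaged 4431 ± 181 in UBQ, 1104 ± 153 in DREM, 5006 ± 201 in DEH2 and 2440.2 ± 705 in WT. DREM libraries were the lowest for this gene, below every library of the other labels. TraesCS3D02G346300 (rank 10) had 2542, 2871 and 2133 in drought UBQ libraries, 1285, 1356 and 1499 in DREM, 1427, 908 and 919.8 in DEH2 and 12717, 11197 and 10803 in WT, so that every WT library was well above every library of the lines. Well-watered values of these low genes set the size of the change: with 10 added in place of 1, the lowest change of TraesCS1D02G147800 was 6.38 rather than 9.69, below those of TraesCS3A02G237000 (7.38), TraesCS4D02G210900 (7.19) and TraesCS1B02G304800 (6.88), so its first rank depends on the value added. Single well-watered libraries also weighed on these changes. The lowest change of TraesCS3D02G159200 was 8.39, and 9.45 without WT replicate 2. That of TraesCS5B02G197400 was 7.78, and 8.89 without WT replicate 3. That of TraesCS7D02G428800 was 7.39, and 8.03 without DREM replicate 3.

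The members with the highest drought counts did not respond alike. TraesCS5D02G031300, with the highest mean over drought groups, had 74421, 71390.4 and 72294 in drought UBQ libraries, 47866, 47819 and 48849.8 in DREM, 66209.6, 61670.4 and 61816 in DEH2 and 79245, 81978 and 79843 in WT. With water it had 13000.2, 13334 and 12603 in UBQ, 10420.4, 9947 and 11131 in DREM, 7993, 8177 and 9118 in DEH2 and 6210.4, 6732 and 7161 in WT. This gene was thus already abundant in well-watered leaves, and its changes were 2.49 in UBQ, 2.20 in DREM, 2.91 in DEH2 and 3.58 in WT. Under drought DREM was the lowest label and WT the highest, while with water WT was the lowest and UBQ the highest. TraesCS5A02G024900, the second by drought level, averaged 59435 ± 1170.5 in UBQ, 47046 ± 554 in DREM, 70273 ± 2109 in DEH2 and 47319 ± 2691 in WT under drought. With water it averaged 7367 ± 198 in UBQ, 6619.8 ± 479 in DREM, 5379 ± 453 in DEH2 and 3694 ± 158 in WT. Its drought values in DREM and WT overlapped, and DEH2 was highest. Other members with high well-watered counts were TraesCS2D02G493500, TraesCS6D02G355000 and TraesCS4B02G101800, whose lowest changes of 2.18, 2.19 and 2.21 lay near the edge of the rule. Altogether 6 members had a well-watered mean of at least 500 in all 4 labels.

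Of the 10 members with the highest drought counts, 7 were highest in WT. TraesCS3B02G395900 had 25742, 24131 and 27568 in drought UBQ libraries, 30306, 30058 and 28430.3 in DREM, 9648, 7826 and 8764 in DEH2 and 53008, 55855 and 53591 in WT. TraesCS3A02G363700 had 16726, 16238 and 16642 in UBQ, 12798, 12747 and 12226 in DREM, 13689, 11971 and 11940.0 in DEH2 and 51673, 52979 and 51259 in WT. TraesCS3D02G357200 had 24085, 23025 and 25298 in UBQ, 10014, 9944 and 9853 in DREM, 13183, 12214 and 12138 in DEH2 and 46347, 48115 and 45260.4 in WT. For each of these 3 genes every WT drought library was above every drought library of the lines, and all 9 line-against-WT differences under drought passed the limma test, from -2.64 to -0.87 on the log2 scale. With water 7 of the 9 differences passed as higher in the line and none as lower; UBQ was higher than WT for TraesCS3B02G395900 by 1.47 ± 0.09 (log2, SE, limma adjusted p = 1.17e-11). TraesCS2D02G493500 was also highest in WT under drought, at 23745 ± 635, against 18958 ± 100.2 in UBQ, 16401 ± 249 in DREM and 13529.7 ± 513 in DEH2.

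The group 5 members TraesCS5A02G213600 and TraesCS5B02G210100 were instead highest in UBQ in both regimes. Under drought TraesCS5A02G213600 averaged 29076 ± 301 in UBQ, 16802 ± 207 in DREM, 19760.4 ± 917 in DEH2 and 20981 ± 403 in WT, and TraesCS5B02G210100 averaged 32279 ± 616, 16021 ± 59.8, 20394 ± 1255 and 15087 ± 574 in the same order. With water they averaged 1056 ± 50.1 and 947 ± 79.3 in UBQ, against 426 ± 35.6 and 348 ± 7.69 in WT. Against WT, TraesCS5B02G210100 was higher in UBQ by 1.10 ± 0.06 (log2, SE, limma adjusted p = 6.84e-17) under drought and by 1.44 ± 0.06 (log2, SE, limma adjusted p = 1.86e-18) with water. Its changes, 5.09 in UBQ, 5.42 in DREM, 5.30 in DEH2 and 5.43 in WT, were nearly equal over the labels, and the level in UBQ was above that in WT in both regimes.

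How far the 4 labels differed in their change varied widely between members. The range from a member's lowest to its highest change had a median of 1.66, against 0.65 over the genes that met the level conditions. It was at least 1 in 159 members (79.5%), at least 2 in 77 (38.5%) and at least 3 in 32 (16%). The same held for 53.5%, 24.2% and 11.6% of tested genes. Among the genes that met the level conditions it held for 28.7%, 6.88% and 2.11%. The rule chose members for large changes, so these shares are description. The most even member was TraesCS7A02G503900, with changes of 3.00 in UBQ, 3.01 in DREM, 3.04 in DEH2 and 2.93 in WT. Its drought values were 1967, 1949 and 2191 in UBQ, 3988, 3855 and 3585 in DREM, 2329.9, 2481 and 2236 in DEH2 and 1387, 1378 and 1278 in WT, so its level differed between labels although its change hardly did. DEH2 libraries were higher than WT by 0.80 ± 0.14 (log2, SE, limma adjusted p = 7.51e-05) under drought and by 0.72 ± 0.14 (log2, SE, limma adjusted p = 0.000955) with water. The next most even were TraesCS4A02G175900 (range 0.17) and TraesCS5B02G121400 (range 0.29).

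The widest ranges belonged to TraesCS5A02G153900 and TraesCS5D02G159100. TraesCS5A02G153900 had 31341, 28754 and 30087 in drought UBQ libraries, 12762, 12622 and 12013 in DREM, 6160.4, 309 and 1534 in DEH2 and 118660.0, 127277 and 122673 in WT. With water it had 139.6, 137 and 143 in UBQ, 10.00, 7.30 and 9.05 in DREM, 38.6, 35.3 and 33.0 in DEH2 and 7.25, 3.87 and 11.4 in WT. No 2 drought groups overlapped, with WT highest and DEH2 lowest and most scattered; with water UBQ was highest and WT and DREM overlapped at the bottom. The changes were 7.74 in UBQ, 10.32 in DREM, 6.19 in DEH2 and 13.82 in WT. TraesCS5D02G159100 had 24145, 22123 and 23647 in drought UBQ libraries, 12799, 12842 and 12653 in DREM, 4629, 802 and 1832 in DEH2 and 77884, 85064 and 81841 in WT. With water it had 1667, 1600.4 and 1256 in UBQ, 28.1, 32.8 and 57.5 in DREM, 212, 179.8 and 224 in DEH2 and 29.4, 36.8 and 37.6 in WT. It had the same highest label in each regime as TraesCS5A02G153900, and its changes were 3.95 in UBQ, 8.30 in DREM, 3.55 in DEH2 and 11.16 in WT. These 2 genes were the only members whose SD exceeded 50% of the mean in a drought group, in both cases DEH2, where replicate 1 was the highest library. Whether they are copies of one gene is not given in the files; reads of copies are similar, and the quantification may divide them.

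TraesCS4B02G335300 had the third widest range, 6.60. Its drought values were 8861, 7704 and 8618 in UBQ, 1930.2, 1908 and 2182 in DREM, 1202, 1203 and 2096 in DEH2 and 975, 1096 and 1014 in WT. With water it had 0, 1.35 and 1.45 in UBQ, 2.60, 0 and 3.85 in DREM, 0.942, 1.08 and 0 in DEH2 and 24.2, 20.2 and 21.8 in WT. WT libraries were the lowest under drought and the highest with water, each time without overlap with a line. Under drought only the UBQ difference from WT passed the limma test (adjusted p = 1.52e-05). The adjusted p was 0.080 for DREM and 0.373 for DEH2.

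As a group the members took up the largest share of the normalized counts in UBQ, in both regimes. This share is a sum, so the most abundant members, such as TraesCS5D02G031300 and TraesCS5A02G024900, weigh most in it. All members together made up 3.43% ± 0.049 of all normalized counts in drought UBQ libraries, 2.13% ± 0.050 in DREM, 2.33% ± 0.039 in DEH2 and 2.44% ± 0.32 in WT (SD, n = 3 each). With water the shares were 0.116% ± 0.0011 in UBQ, 0.103% ± 0.0038 in DREM, 0.0896% ± 0.0047 in DEH2 and 0.0787% ± 0.0039 in WT. Every UBQ library was above every library of the other labels in its regime. Among drought WT libraries, replicate 1 had a total of 54345800 against 41683200 and 41766200 in its sisters and a member share of 2.07% against 2.59% and 2.66%. Across tested genes, 1150 (1.91%) were at least 4-fold higher in that library than in both sisters, but no member was; 2 members exceeded both sisters by 1.5-fold, and the median member stood at 1.05 times the higher sister.

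**Figure D3:**
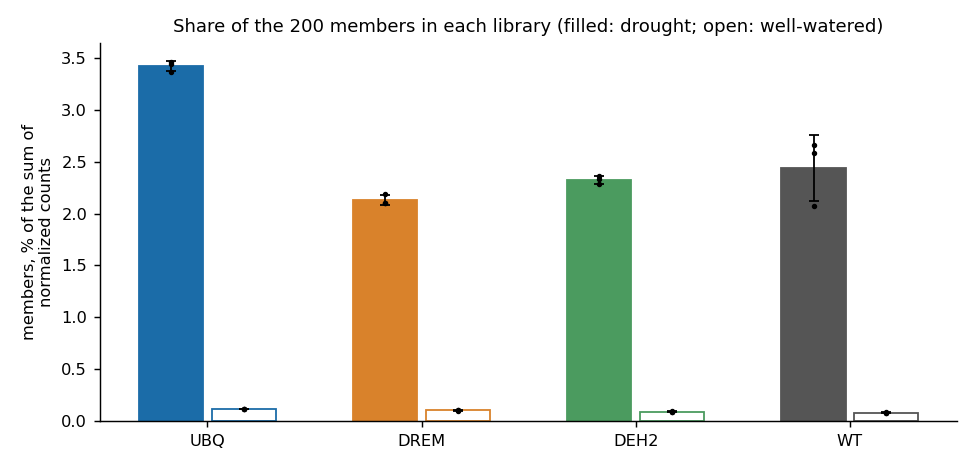
Share of all normalized counts, in percent, taken by the 200 members in each library, by genotype label and regime; bars are group means, error bars the SD of 3 libraries and points the libraries, with filled bars for drought and open bars for well-watered. Drought libraries range from 2.07% to 3.47% and well-watered libraries from 0.0747% to 0.117%, with UBQ highest in both.

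UBQ most often had the highest mean of a member: in 78 members (39%) under drought and in 102 (51%) with water, against 22.6% and 36.2% of the genes that met the level conditions. Under drought the highest mean was in DREM for 10 members, in DEH2 for 60 and in WT for 52; for WT the share, 26%, was below the 42.5% over genes that met the level conditions. The largest change was seen in UBQ for 58 members, in DREM for 24, in DEH2 for 61 and in WT for 57 (29%, 12%, 30.5% and 28.5%). Over the genes that met the level conditions these shares were 24.1%, 16.4%, 18.8% and 40.7%.

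The next comparisons ask whether each line differed from WT in the same regime. The rule used the group means but not the difference between genotypes, and all 6 comparisons come from one limma fit of 60088 genes with Benjamini-Hochberg adjusted p under 0.05. The fit shares 1 spread per gene over both regimes. Within a group, the members' median SD over mean was 13.8% with water and 5.16% under drought. Fitted on 1 regime alone, 106, 85 and 76 members were called with water in UBQ, DREM and DEH2. Under drought 172, 171 and 172 were then called. Shares of tested genes were not computed for those fits. A well-watered mean of at least 500 in all 4 labels held for 3% of members. It held for 83.2% of the genes that met the level conditions and 20.7% of tested genes. Neither background thus matches the members in well-watered level. The rule also used the well-watered means, so the members' shares with water are given as description. The comparisons of a regime share the WT libraries, so their counts are given side by side and not as independent evidence. An effect of the transgene and a difference in the plants behind a label cannot be told apart.

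In well-watered leaves the shared fit called a larger share of members than of tested genes between UBQ and WT, mostly upwards in UBQ. Fitted on well-watered libraries alone, the calls were 84 higher and 22 lower. The shared fit called 134 members (67%), 101 higher and 33 lower, against 31.1% of all tested genes, 15.2% higher and 15.9% lower. Among the genes that met the level conditions 42.8% were called, 20.7% higher and 22.03% lower. The median log2 difference over members was 0.36, against 0.00 over tested genes, and 48 members were higher and 9 lower by at least 2-fold, a size reached by 9.81% of tested genes. Besides TraesCS5D02G159100, which was higher in UBQ by 5.40 ± 0.41 (log2, SE, limma adjusted p = 1.34e-08), the strongest rise was that of TraesCS6B02G383600. It had 488, 467 and 399 in well-watered UBQ libraries, against 13.1, 16.7 and 12.9 in WT, with no overlap, a log2 difference of 4.90 ± 0.19 (SE, limma adjusted p = 6.39e-13). Its well-watered levels in DREM (10.3 ± 2.04) and DEH2 (11.4 ± 4.60) were near those of WT. The identifier next to it, on 6B, was one of those that the rule left out. The strongest falls in UBQ were those of TraesCS4B02G335300, by a log2 difference of -3.68 ± 0.46 (SE, limma adjusted p = 5.38e-06), and TraesCS7A02G147300. TraesCS7A02G147300 had 12.6, 26.8 and 11.2 in well-watered UBQ libraries and 51.3, 102 and 62.0 in WT, a log2 difference of -2.07 ± 0.33 (SE, limma adjusted p = 0.000112).

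DREM differed from WT in both directions when watered. The test called 100 members (50%), 41 higher and 59 lower, against 21.3% of tested genes, 9.66% higher and 11.7% lower. Of the genes that met the level conditions, 34.5% were called, 12.5% higher and 21.97% lower. The median difference was -0.07, with 13 members higher and 20 lower by at least 2-fold, against 4.94% of tested genes. With values divided by library sums the calls were 49 higher and 45 lower, and the median of all tested genes was 0.13. TraesCS1D02G184500 rose most, with 47.2, 48.6 and 25.8 in DREM and 5.87, 18.4 and 4.33 in WT, by 2.17 ± 0.35 (log2, SE, limma adjusted p = 0.000213). TraesCS7B02G207300 had 186, 203 and 237 in DREM and 32.2, 99.2 and 51.8 in WT, a log2 difference of 1.90 ± 0.27 (SE, limma adjusted p = 5.69e-05). For both genes every DREM library was above every WT library. TraesCS6A02G240400 was nearly absent from well-watered DREM libraries, at 1.13, 3.18 and 0, against 19.1, 27.6 and 18.8 in WT, and differed by a log2 difference of -3.44 ± 0.40 (SE, limma adjusted p = 5.88e-06). TraesCS4B02G335300 was lower in DREM as in UBQ, by a log2 difference of -3.15 ± 0.46 (SE, limma adjusted p = 5.98e-05). Without DREM replicate 2 this difference was -2.46, and it passed the test.

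DEH2 also differed from WT in both directions when watered, with slightly more members higher than lower. The test called 100 members (50%), 57 higher and 43 lower, against 19.5% of tested genes, 8.98% higher and 10.5% lower. Of the genes that met the level conditions, 26.6% were called, 10.4% higher and 16.2% lower. The median difference was 0.01, with 23 members higher and 12 lower by at least 2-fold, against 6.36% of tested genes. TraesCS1D02G184500 had 78.1, 70.5 and 73.5 in well-watered DEH2 libraries, above every WT library, and rose by 3.07 ± 0.35 (log2, SE, limma adjusted p = 4.38e-06). TraesCS4B02G038100 had 162, 169.9 and 183 in DEH2 and 28.0, 27.7 and 24.7 in WT, a log2 difference of 2.64 ± 0.14 (SE, limma adjusted p = 2.02e-15). TraesCS4B02G335300 was lower by a log2 difference of -3.85 ± 0.46 (SE, limma adjusted p = 5.36e-06), so that it was lower than WT in all 3 lines. TraesCS3B02G064100 had 103, 91.5 and 132 in DEH2 and 669, 694 and 855 in WT, without overlap, a log2 difference of -2.76 ± 0.15 (SE, limma adjusted p = 1.39e-10).

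Under drought UBQ carried higher levels than WT for most members. The test called 151 members (75.5%), 113 higher and 38 lower, against 60.9% of tested genes, 30.6% higher and 30.3% lower. The share called in either direction was close to the 74.1% over genes that met the level conditions; the direction was not, with 56.5% of members higher against 30.7% of those genes. The median difference was 0.57, and 67 members were higher and 12 lower by at least 2-fold, against 28.5% of tested genes. With values divided by library sums, 134 members were higher and 25 lower; the median of all tested genes was then 0.34, and the members' median minus it was 0.57, against 0.56 without that scaling. TraesCS4D02G021400 had 21968, 21666 and 22154 in drought UBQ libraries, 17211, 16993 and 15777 in DREM, 32618, 34081 and 32781 in DEH2 and 559.7, 836 and 620.3 in WT. TraesCS4B02G023800 had 18470.2, 18258 and 18605 in UBQ, 11957, 11698 and 11681 in DREM, 21339.8, 22322 and 21438 in DEH2 and 568, 808 and 725 in WT. All line libraries were far above all WT libraries for both genes, and in UBQ the differences were 5.05 ± 0.10 (log2, SE, limma adjusted p = 9.53e-25) and 4.73 ± 0.12 (log2, SE, limma adjusted p = 4.01e-20). With water the same genes averaged 148 ± 10.9 and 103 ± 13.0 in UBQ and 114 ± 7.26 and 124 ± 19.2 in WT.

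The strongest falls of UBQ under drought were those of TraesCS6D02G026500 and TraesCS7A02G147300. TraesCS6D02G026500 had 1592, 1431 and 1478 in UBQ, 559.7, 717 and 739.6 in DREM, 1995, 1036 and 1231 in DEH2 and 20286, 20792 and 18955 in WT. TraesCS7A02G147300 had 1648, 1614 and 1627 in UBQ, 2126, 2049.9 and 2279 in DREM, 1948, 873 and 937 in DEH2 and 21887, 19081 and 18655 in WT. For both genes WT stood an order of magnitude above the lines, with no overlap. The differences of UBQ from WT were -3.74 ± 0.22 (log2, SE, limma adjusted p = 4.6e-11) and -3.60 ± 0.33 (log2, SE, limma adjusted p = 3.9e-08).

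Under drought the members' split in DREM was near that of other abundant genes. The test called 135 members (67.5%), 51 higher and 84 lower, against 58.9% of tested genes, 28.6% higher and 30.3% lower. Of the genes that met the level conditions 73.1% were called, 27.0% higher and 46.1% lower, against 25.5% and 42% of members. The median difference was -0.26, with 26 members higher and 40 lower by at least 2-fold, against 26.7% of tested genes. When values were divided by library sums, 82 members were higher and 52 lower and the median was 0.22; that scaling also moved the median of all tested genes to 0.45. The members' median minus that of all tested genes was -0.23 with that scaling and -0.25 without it. The most raised were again TraesCS4D02G021400, by 4.65 ± 0.10 (log2, SE, limma adjusted p = 7.71e-24), and TraesCS4B02G023800, by 4.09 ± 0.12 (log2, SE, limma adjusted p = 8.13e-19). The most lowered were TraesCS6D02G026500, by a log2 difference of -4.90 ± 0.22 (SE, limma adjusted p = 8.62e-13), and its neighbour TraesCS6D02G026400. TraesCS6D02G026400 had 2768, 2439 and 2628 in UBQ, 989.8, 972 and 996 in DREM, 2224, 1578 and 2153 in DEH2 and 14422, 15813 and 13695 in WT. WT was highest and DREM lowest, and DREM differed from WT by a log2 difference of -3.89 ± 0.19 (SE, limma adjusted p = 1.81e-12).

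DEH2 under drought was called higher than WT for 84 members and lower for 65, together 149 (74.5%). The background was 58% of tested genes, 28.3% higher and 29.7% lower, and 73.8% of the genes that met the level conditions, 27.4% higher and 46.4% lower. The median difference was 0.19, with 45 members higher and 31 lower by at least 2-fold, against 25.7% of tested genes. With values divided by library sums, 100 were higher and 46 lower; the members' median minus that of all tested genes was 0.19 with that scaling and 0.18 without it. TraesCS4D02G021400 and TraesCS4B02G023800 were higher by 5.64 ± 0.10 (log2, SE, limma adjusted p = 1.66e-25) and by 4.97 ± 0.12 (log2, SE, limma adjusted p = 1.97e-20). The largest falls were those of TraesCS5A02G153900, by a log2 difference of -6.42 ± 0.65 (SE, limma adjusted p = 1.72e-07), and TraesCS5D02G159100, by a log2 difference of -5.43 ± 0.41 (SE, limma adjusted p = 2.72e-09). Without DEH2 replicate 1 the difference of TraesCS5A02G153900 was -7.48 and without replicate 2 it was -5.32; that of TraesCS5D02G159100 was -6.07 and -4.81. Both passed the test in each case.

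Some members lay on opposite sides of WT in the 2 regimes. A line was called on one side under drought and on the other with water, with no overlap of libraries in either regime, for 28 members in UBQ (14%), 20 in DREM (10%) and 32 in DEH2 (16%). The same held for 9.34%, 4.01% and 5.69% of tested genes, and for 15.5%, 6.25% and 8.97% of the genes that met the level conditions, in the same order of lines. In at least 1 line it held for 56 members (28%), against 15.2% of tested genes and 24.1% of those that met the level conditions.

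**Figure D4:**
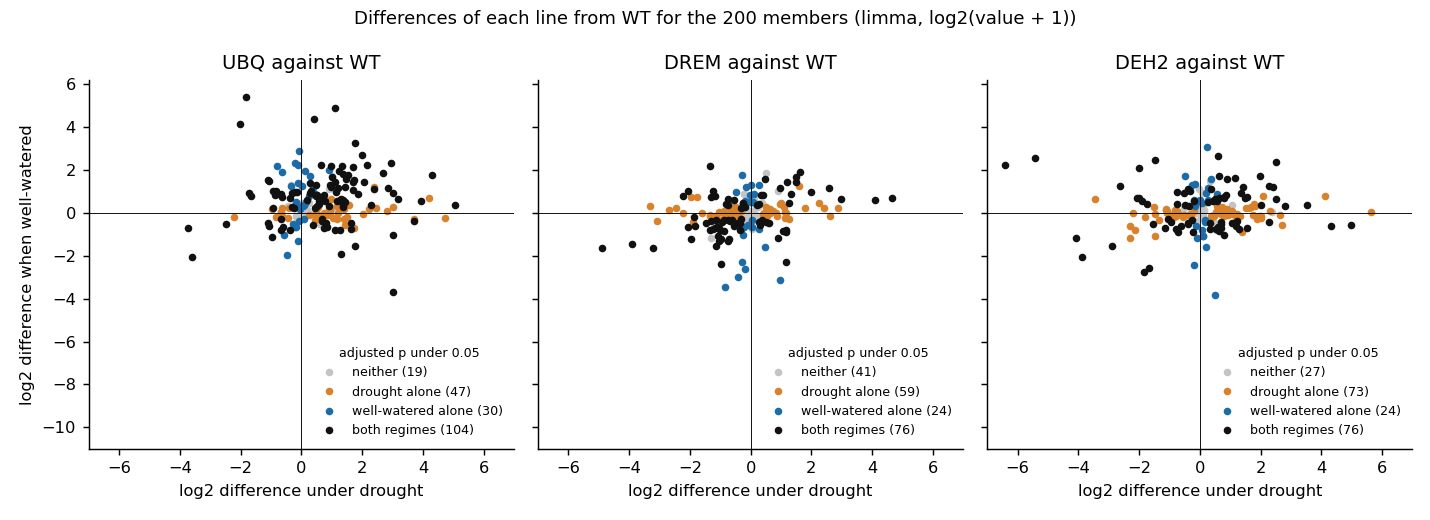
Log2 difference of each line from WT with water (vertical axis) against that under drought (horizontal axis) for the 200 members, from the limma fit; colours give the regimes in which the adjusted p was under 0.05. Called in both regimes were 104 members in UBQ, 76 in DREM and 76 in DEH2.

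Identifier numbers placed most members apart from one another. With neighbours defined as identifiers at most 10 steps apart, 178 members stood alone and 22 fell into 9 runs. In the run of TraesCS1B02G367500, TraesCS1B02G367600 and TraesCS1B02G367800, no other gene between them was tested. TraesCS1B02G367500 had 28258, 26119 and 25846 in drought UBQ libraries, 3911, 3739.9 and 4807 in DREM, 6731, 6405 and 7376 in DEH2 and 1844, 1748 and 1613 in WT. The others averaged 10028 ± 1013 and 11606 ± 896 in UBQ, against 548 ± 52.4 and 880.0 ± 53.3 in WT. All 3 had the same order under drought, with UBQ far above DEH2, then DREM, then WT. Their differences of UBQ from WT were 3.95, 4.19 and 3.72 on the log2 scale (limma, adjusted p = 4.07e-15, 3.87e-07 and 1.12e-18). With water UBQ was not the highest: DEH2 averaged 626 ± 27.5 for TraesCS1B02G367500, against 274 ± 8.49 in UBQ, 261 ± 11.3 in DREM and 195 ± 53.8 in WT. This run does not lie among the 210 genes at the start of 1B described above.

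The longest run held 4 members on 6A: TraesCS6A02G350200, TraesCS6A02G350300, TraesCS6A02G350600 and TraesCS6A02G350700. UBQ was highest under drought for each, at 5325 ± 239, 4080.4 ± 34.0, 7431 ± 303 and 2772 ± 143, against 655 ± 43.2, 631 ± 23.6, 2168 ± 97.3 and 1026 ± 96.5 in WT. All 4 differences of UBQ from WT passed the limma test, at 3.02, 2.69, 1.78 and 1.44. Neighbours were not uniform within the run. TraesCS6A02G350400 and TraesCS6A02G350500 lie between these members, and the rule left out TraesCS6A02G350500 by name. For both, the drought mean was highest in WT, at 526 and 21674, against 156 and 14855 in UBQ. DEH2 was higher than WT under drought for TraesCS6A02G350200, by 1.49 ± 0.14 (log2, SE, limma adjusted p = 6.34e-11), and lower for TraesCS6A02G350600, at 542 ± 72.0 in DEH2 and 2168 ± 97.3 in WT (limma adjusted p = 3.21e-05).

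On 6D, TraesCS6D02G333000, TraesCS6D02G333100 and TraesCS6D02G333600 formed a run of 3. TraesCS6D02G333600, rank 6 of all members, had 8309.9, 7909 and 8413 in drought UBQ libraries, 4138, 4019 and 4694 in DREM, 1133, 935 and 1165 in DEH2 and 5257, 5451 and 5046 in WT. With water it had 28.8, 35.0 and 27.3 in UBQ, 0, 0 and 1.65 in DREM, 2.97, 4.65 and 2.83 in DEH2 and 5.82, 7.59 and 4.29 in WT. UBQ was highest and DEH2 lowest under drought, and UBQ was highest with water. The other members of the run had the same ends of the order under drought: TraesCS6D02G333000 averaged 32181 ± 1774 in UBQ and 6454 ± 284 in DEH2, and TraesCS6D02G333100 averaged 11467 ± 707 and 2423 ± 152. The remaining 6 runs were pairs, among them the 6D pair with low drought levels in the lines described above.

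Members were spread over the subgenomes and chromosomes roughly as the genes that met the level conditions were. The share on chromosome group 6 was somewhat larger and that on subgenome A somewhat smaller. The A, B and D subgenomes held 54, 72 and 73 members (27%, 36% and 36.5%), against 31.0%, 33.2% and 34.9% of those genes, and 1 member was unplaced. Chromosome 2D held the most, 15 (7.5% against 5.34%), followed by 6D with 13 (6.5% against 4.40%). Chromosome 2A held none, where the rule left out a long range, and only 2.07% of the genes that met the level conditions were from there. By chromosome group, members numbered 29, 26, 27, 31, 30, 34 and 22 for groups 1 to 7. Group 6 departed most from the genes that met the level conditions, with 17% of members against 12.6% of those genes. The runs of neighbours on 6A and 6D lie in this group, so its members are not all separate placements. Groups 3, 5 and 7 held smaller shares of members than of those genes, group 7 with 11% against 13.7%. These differences were not tested.

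**Figure D5:**
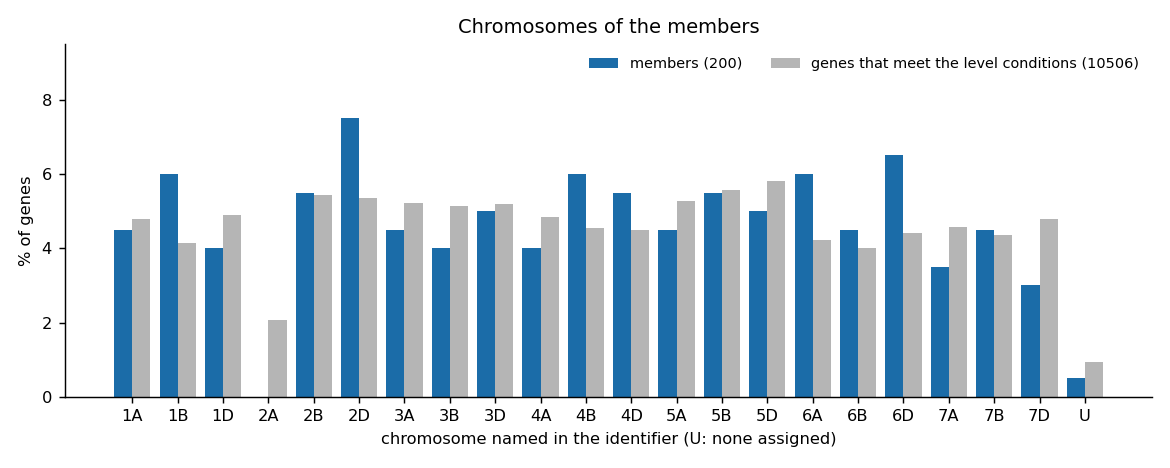
Share of the 200 members on each chromosome, in percent, beside the share of the 10506 genes that met the level conditions. Shares lie close together for most chromosomes; 2A holds none of the members, and 2D and 6D hold the most.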

How the data were processed

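Leaf RNA libraries of 4 genotypes in 2 water regimes (24 libraries, 8 groups of 3) were taken from the sample labels; the series' design text speaks of re-watered plants and other genotype names, which the labels do not hold. The authors deposited 1 normalized count per gene and library, a signal scaled between libraries whose sums still differ (32479700 to 54437000). CASAVA, Trimmomatic, STAR, Salmon and DESeq2 appear in the submitters' processing notes, with no versions; no genome build is named in the sources used here.

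Genes with a value in 1 library only were whole multiples of a fixed step, the value of 1 read (0.651 to 1.54), within 0.01 for 93.0% to 99.5% of them, which gave the depth. Over all genes 2.03% to 12.9% were, so no count model was fitted. A count of 0 allows 3 reads, a value of 1.95 to 4.63; floors cover counting error only. None of the 107891 identifiers matched the 155467 genes listed by RefSeq (IWGSC CS RefSeq v2.1), so lists of pathway genes and leaf markers could not be applied and no sequences are shown. Reads of A, B and D copies are similar, so values of single copies are uncertain.

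Values were taken as log2(value + 1), which understates the change of low genes. The fit held the 60088 genes that reached 10 in 3 or more libraries; all 200 members did, through their drought libraries. One limma 3.58.1 fit of 8 group means in R 4.3.3, with an intensity trend and robust prior, gave two-sided tests with Benjamini-Hochberg adjustment over all tested genes. The step was tested on simulated data. Data handling and plots used data.table (version 1.17.8), Python 3.11.15, pandas 2.3.3, numpy 2.4.6 and matplotlib 3.10.9. Members and lists were chosen with earlier results of these data known.

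Named are the 10 members with the highest drought mean, the 10 with the highest lowest change, the 5 with the highest well-watered mean, the 3 at each side of the rule's edge, the 3 with the smallest and the 3 with the largest range, the 2 most raised and 2 most lowered in each of 6 comparisons among called members whose libraries do not overlap, the 3 longest runs of neighbours, and any member at least 4-fold from both sisters in WT drought replicate 1, of which there was none. The member without separated regimes and the 4 at 0 in a group were named after their values were seen. Alternatives were other pseudocounts, filters, scalings, variance models and thresholds of the rule, single regimes, a replicate block and leaving out each library.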

Additional observations from a re-analysis of the deposited data

Results flagged for a closer look

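Among the members named for their difference from WT, 5 had a line on one side of WT under drought and on the other with water, with no overlap between libraries in either regime. Over all members this held in at least 1 line for 56 of 200 (28%), against 15.2% of tested genes and 24.1% of those that met the level conditions, so it was not rare. The difference between the regimes itself was not tested, since the rule that chose the members used both. Values are log2 differences of the line from WT (limma fit, 3 libraries a group). TraesCS5A02G153900 stood at -6.42 under drought and 2.20 with water in DEH2, and at -2.03 and 4.15 in UBQ. TraesCS5D02G159100 stood at -5.43 under drought and 2.54 with water in DEH2, and at -1.81 and 5.40 in UBQ. TraesCS1D02G184500 stood at -1.35 under drought and 2.17 with water in DREM. TraesCS4B02G335300 stood at 3.03 under drought and -3.68 with water in UBQ, where its well-watered level was under 2 normalized counts in every library. TraesCS4B02G023800 stood at 4.97 under drought and -0.58 with water in DEH2. The drought DEH2 values of TraesCS5A02G153900 and TraesCS5D02G159100 had an SD above 50% of the mean. These 7 differences share their WT libraries, and the part played by the mismatch of labels between regimes was not tested.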

How the results depend on the processing

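The 24 differences of named members from WT kept their direction and their side of the threshold in 384 of 384 alternatives. They were picked as the most raised and most lowered among called members without overlap, so nothing is read from this for other members. Of 288 alternative counts of called members, 285 lay within 1.5 times the value given. For the lowest changes of the 10 first-ranked members, 223 of 260 alternatives moved the value by less than the SD between libraries; the 37 that moved it further touched all 10 members, and a pseudocount of 10 did so for each of them. Leaving out each library gave 8.01 to 9.45 for TraesCS3D02G159200 and 7.31 to 8.89 for TraesCS5B02G197400. The exceptions among the counts came from dividing values by library sums: under drought 25 members were then called lower in UBQ, and 82 higher and 52 lower in DREM. That scaling gave median drought changes of 5.06 in UBQ, 4.83 in DREM, 5.07 in DEH2 and 4.58 in WT, and a pseudocount of 10 gave 4.33, 4.10, 4.46 and 4.17 for the same labels. A drought mean of 250 in the rule kept 133 of the 200 members and one of 1000 kept 122; the other settings of the rule kept 182 to 200, and the ranking that pairs no labels, added after the data were seen, 178. Leaving out each library kept 195 to 200 members and gave median changes of 4.44 to 4.54 in UBQ, 4.28 to 4.36 in DREM, 4.59 to 4.70 in DEH2 and 4.28 to 4.47 in WT. It gave called members of 123 to 128 in UBQ, 90 to 101 in DREM and 86 to 97 in DEH2 with water, and of 140 to 147, 124 to 131 and 142 to 146 under drought. Fitting each regime alone moved these counts beyond those ranges, to fewer with water and more under drought, as given above.

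Same-numbered libraries of different groups deviated together at most weakly. Of 84 correlations of deviations from group means, between -0.057 and 0.124, 1 exceeded 0.1. The 168 correlations between differently numbered libraries lay between -0.087 and 0.067, and 0 exceeded 0.1. Among libraries of other groups, 13 of 24 libraries correlated best with their own number, and no share to be met without pairing was computed. With the replicate number as a block, 134, 100 and 99 members were called with water and 151, 135 and 150 under drought, in the order UBQ, DREM and DEH2. Depth limits the well-watered values of the lowest members, which rest on single reads.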
